A study of Homo sapiens with 2 samples.

Results

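The genes described here encode the alpha, beta and gamma tubulins. Members were the rows of the deposited expression table whose gene symbol was on a list of 10 tubulin genes, and 9 of the 10 were found among 13075 genes. They are the alpha tubulins TUBA1A, TUBA1B and TUBA1C, the beta tubulins TUBB, TUBB2A, TUBB2B, TUBB4B and TUBB6, and the gamma tubulin TUBG1. TUBA4A matched no row and was not analysed here. All 9 passed the filter of at least 5 FPKM (fragments scaled to transcript length and library size) in at least 1 library, as did 11990 genes in all.

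The study used native RIP-seq, in which RNA that travels with a protein is recovered with an antibody and sequenced. HEK293 cells, a line derived from human embryonic kidney, were transfected with FLAG tagged R338W TOP3B, a form of the enzyme known to stay trapped on its nucleic acid, and both libraries came from such cells at passage 15. The RIP library held RNA recovered with the monoclonal antibody ANTI-FLAG M2, and the input library was made with no antibody. The series title puts the question as which RNAs hold cleavage complexes of TOP3B, a topoisomerase known to work on RNA as well as DNA.

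Each group had 1 library, so no difference below has a replicate check and no test was made. No mock immunoprecipitation entered the comparison, so RNA bound to the antibody or beads is not subtracted. In bulk RNA, fewer cells that hold an mRNA and less of it per cell cannot be told apart. TOP3B itself stood at 30666 FPKM (RIP) and 15062 FPKM (input), where transcripts of the transfected copy and of the chromosomal gene are counted together. Depth was estimated from the steps between low values as 24800000 fragments for the RIP library against 15200000 for the input library. Of the intermediate filament genes checked for the cell line, VIM stood at 679 FPKM (RIP) and 544 FPKM (input). Of 8 kidney tubule markers 1 (LRP2) was in the table, and of 4 blood markers 0 were.

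Alpha and beta tubulin form the heterodimer from which microtubules are built, and gamma tubulin sits in the ring complex that starts new microtubules. Cells hold several isotypes of each, encoded by separate genes with similar coding sequences. As proteins, the isotypes of alpha and beta tubulin are known to differ most in the acidic tail at their end. Tubulin mRNAs are known for autoregulation: when free tubulin is in excess, the factor TTC5 recognises the first residues of a nascent alpha or beta tubulin at the ribosome, and the mRNA is degraded during translation. The message is therefore marked by what its first codons encode.

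The first 36 bases of each coding sequence are shown because they hold the codons read in this autoregulation. They come from the principal transcript of each gene in GENCODE release 29 (GRCh38, the assembly of hg38), run 5′ to 3′ from the start codon, and have the first 4 codons in capitals.
TUBA1A: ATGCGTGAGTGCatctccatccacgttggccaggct
TUBA1B: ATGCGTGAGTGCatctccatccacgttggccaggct
TUBA1C: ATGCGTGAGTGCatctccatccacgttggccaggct
TUBB: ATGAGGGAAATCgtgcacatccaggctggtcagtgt
TUBB4B: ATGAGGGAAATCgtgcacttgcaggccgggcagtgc
TUBB6: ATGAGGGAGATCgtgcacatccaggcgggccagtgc
TUBB2A: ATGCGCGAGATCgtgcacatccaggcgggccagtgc
TUBB2B: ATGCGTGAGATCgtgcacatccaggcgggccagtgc
TUBG1: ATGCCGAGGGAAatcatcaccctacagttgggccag

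The 3 alpha tubulins had the same 36 bases. In each of them an intron lies within this stretch, which spans chr12:49129690-49131300 on the minus strand for TUBA1B, chr12:49186801-49188979 on the minus strand for TUBA1A and chr12:49265182-49269497 on the plus strand for TUBA1C. In the beta tubulins and TUBG1 the stretch lies in 1 exon, at chr6:30720507-30720542 on the plus strand for TUBB and chr17:42609738-42609773 on the plus strand for TUBG1. Counted from 1 at the A of the start codon, with the base of TUBB first, TUBB4B had 0 differences from TUBB in the first 12 bases, TUBB6 had A9G, and TUBB2A and TUBB2B had 3 differences each. None of these differences changes an encoded residue, so the first 12 bases encode the same residues in all the beta tubulins shown. TUBG1, which is not known as a target of this control, differed from TUBB at 8 of the 12 when compared by position without gaps. After 1 further codon, CCG, TUBG1 has the same bases AGGGAAATC that follow the start codon in TUBB.

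The last 66 bases of the coding sequence of the beta tubulins are shown because they encode the tail by which most beta isotypes are told apart. The stop codon is in capitals.
TUBB: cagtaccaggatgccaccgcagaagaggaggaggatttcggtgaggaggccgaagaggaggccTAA
TUBB2A: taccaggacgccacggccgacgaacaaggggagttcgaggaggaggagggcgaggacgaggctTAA
TUBB2B: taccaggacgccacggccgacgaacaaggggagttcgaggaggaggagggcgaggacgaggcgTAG
TUBB4B: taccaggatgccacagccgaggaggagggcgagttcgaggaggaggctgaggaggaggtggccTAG
TUBB6: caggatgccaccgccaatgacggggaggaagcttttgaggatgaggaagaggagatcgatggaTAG

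TUBB2A differed from TUBB2B at 2 of these 66 bases, in the last codon (gct against gcg) and in the stop codon (TAA against TAG). Both last codons encode the same residue, so this stretch does not tell the proteins of TUBB2A and TUBB2B apart. Each stretch lies in the last coding exon, at chr6:30724332-30724397 on the plus strand for TUBB, chr6:3153863-3153928 on the minus strand for TUBB2A and chr9:137243491-137243556 on the plus strand for TUBB4B. Over whole coding sequences the alpha tubulins were 95.9% to 97.2% identical to each other and the beta tubulins 80.9% to 98.1%. Between an alpha and a beta tubulin the range was 52.9% to 55.2%, and TUBG1 shared 49.9% to 54.3% with the others.

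**Figure D1:**
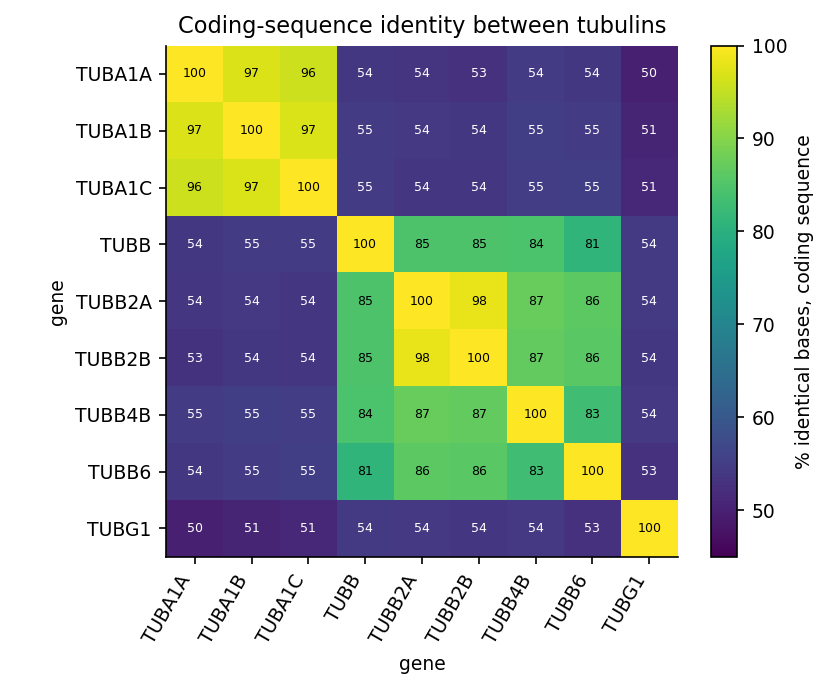
Percentage of identical bases between the coding sequences of the 9 tubulins, after global alignment, with genes on both axes and the percentage in each cell. TUBB2A and TUBB2B are the closest pair (98.1%), followed by TUBA1A and TUBA1B (97.2%), and every alpha and beta pair lies between 52.9% and 55.2%.

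This likeness limits how far isotypes can be separated by sequencing. Windows of 75 bases were taken along each principal transcript and looked up in all annotated transcripts of other genes on the same strand. TUBB2A shared 60.4% of its windows with another gene, TUBB2B 49.5% and TUBA1B 48.4%. TUBA1A shared 27.1%, TUBG1 20.4% (all with TUBG2), TUBA1C 17.0%, TUBB 8.4%, TUBB4B 5.4% and TUBB6 0%. The submitters' tools include RSEM, which divides ambiguous fragments between genes by estimate, so single values of TUBB2A, TUBB2B and the TUBA1 genes are uncertain and their sums are given below as well.

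Some of the genes are neighbours. TUBA1B (ENSG00000123416.15, chr12:49127782-49131397, minus strand), TUBA1A (ENSG00000167552.13, chr12:49184796-49189324, minus strand) and TUBA1C (ENSG00000167553.14, chr12:49188736-49274603, plus strand) form a cluster, and the annotated spans of TUBA1A and TUBA1C overlap on opposite strands. TUBB2A (ENSG00000137267.5, chr6:3153669-3157526) and TUBB2B (ENSG00000137285.9, chr6:3224261-3231730) lie side by side on the minus strand. TUBB (ENSG00000196230.12, chr6:30720201-30725426), TUBB4B (ENSG00000188229.5, chr9:137241213-137243707), TUBB6 (ENSG00000176014.12, chr18:12307669-12344320) and TUBG1 (ENSG00000131462.7, chr17:42609676-42615234) stand on the plus strand. The principal transcripts of the alpha and beta members have 4 exons each, and that of TUBG1 has 11.

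Tubulin mRNAs were abundant in both libraries, and on the deposited FPKM scale none was 2-fold apart between them. The 9 members summed to 1493 FPKM (RIP) and 1560 FPKM (input). Of the 9, 0 were at least 2-fold higher and 0 at least 2-fold lower, against 4.90% of all genes higher and 2.50% lower (588 and 300 genes). Among coding genes alone the shares were 3.65% and 0.533%. With 9 members, 0 in each direction lies near these shares. With equal summed FPKM, where the median gene lay at 0.56, TUBB2A alone of the 9 was at least 2-fold higher at a log2 ratio of 1.05, and 2467 genes were higher and 129 lower. Centred on the median gene, 365 genes were higher and 450 lower. Their median log2 ratio, log2((RIP + 1)/(input + 1)) in FPKM, was 0.12, and that of all 11990 genes was 0.13 with quartiles of -0.25 and 0.50. Of the 9 ratios 5 were above 0, against 58.7% of all genes, and 4 above the median gene, against 50.0%. The members spread around the median gene, from -0.26 (TUBA1B) to 0.59 (TUBB2A). The median gene is used as the reference point below, because another scaling of the libraries shifts all ratios by nearly the same amount.

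**Figure D2:**
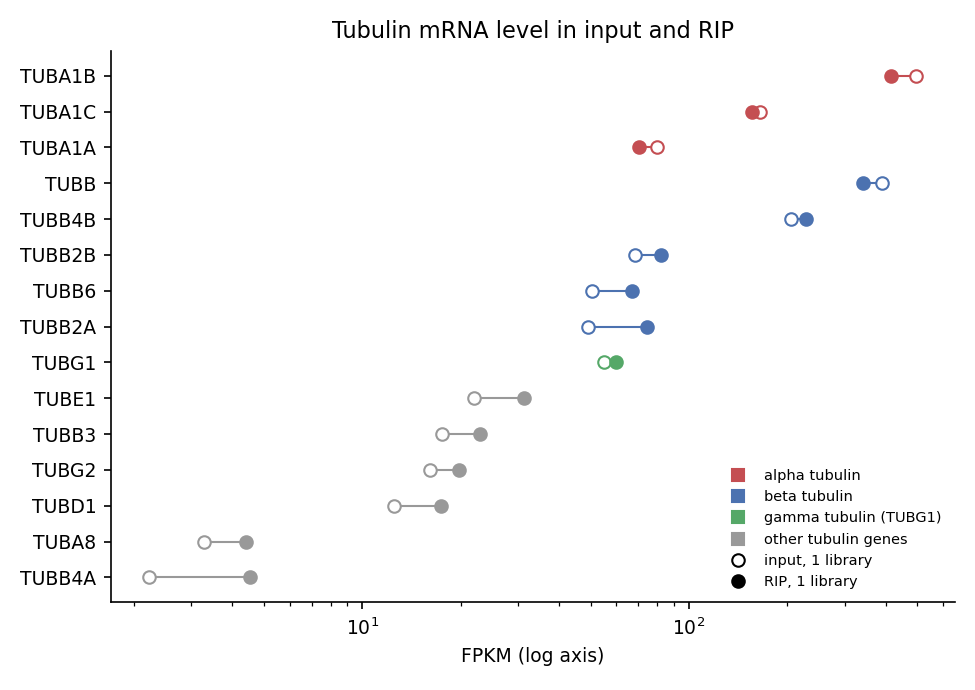
FPKM of the tubulin genes in the input (open circles) and RIP (filled circles), 1 library each, on a log axis, with genes on the vertical axis and classes in colour. TUBA1B and TUBB are the highest in both libraries, and the 6 other tubulin genes of the table lie to the left of all 9 members.

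Among alpha tubulins, TUBA1B, the main isotype of dividing cells, stood at 416 FPKM (RIP) and 497 FPKM (input). It was the highest of the 9 in both libraries, at 19.9 times the median coding gene (RIP) and 26.4 times that gene (input). Its log2 ratio was -0.26, with a 95% counting interval of -0.29 to -0.22. Such intervals come from the estimated fragment numbers (about 15043 and 11043 for TUBA1B) and cover counting error only, not the spread between experiments.

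TUBA1C, a widely expressed isotype, stood at 156 FPKM (RIP) and 165 FPKM (input), a log2 ratio of -0.08. TUBA1A, known as the main alpha tubulin of young neurons, stood at 70.5 FPKM (RIP) and 79.7 FPKM (input), a log2 ratio of -0.17. The order by level was TUBA1B, TUBA1C, TUBA1A in both libraries. Every alpha tubulin lay below the median gene, by 0.38 (TUBA1B), 0.30 (TUBA1A) and 0.21 (TUBA1C) on the log2 scale. Of all genes, 24.5% had a lower ratio than TUBA1B and 35.9% a lower ratio than TUBA1C. A scaling shifts all ratios by nearly the same amount, so the signs depend on it. Without the highest genes of each library the ratios were -0.04, 0.04 and 0.14 for TUBA1B, TUBA1A and TUBA1C, with the median gene at 0.34. Summed over the TUBA1 genes, which avoids the division of shared fragments between them, alpha tubulin stood at 642 FPKM (RIP) and 741 FPKM (input), a log2 ratio of -0.21. With both libraries scaled to the same summed FPKM, a setting added after seeing the data, the direction turned: alpha tubulin took 0.0589% of the RIP library total and 0.049% of the input total.

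Beta tubulins lay on both sides of the median gene. TUBB, the main beta isotype of proliferating cells, stood at 341 FPKM (RIP) and 391 FPKM (input), a log2 ratio of -0.20 (counting interval -0.23 to -0.17). It lay 0.33 below the median gene, next to the alpha tubulins, and its ratio after rescaling was 0.02. TUBB4B, a widely expressed isotype also found in cilia, stood at 227 FPKM (RIP) and 205 FPKM (input). Its log2 ratio of 0.15 was close to the median gene.

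The 3 lower beta isotypes lay above the median gene. TUBB2A stood at 74.2 FPKM (RIP) and 49.1 FPKM (input), the highest log2 ratio of the members at 0.59 (counting interval 0.48 to 0.69). It was the only member at least 1.5-fold higher, a limit passed by 19.9% of all genes, and 0 members were at least 1.5-fold lower against 10.2%. TUBB2A was just past that limit: it fell short at 0.55 with a pseudocount of 5 and at 0.46 when centred, while TUBB6 passed as well (0.62) after rescaling without the highest genes, and TUBB2B, TUBB4B and TUBB6 passed with equal summed FPKM. TUBB6, a less conserved isotype, stood at 66.8 FPKM (RIP) and 50.4 FPKM (input), a log2 ratio of 0.40 (counting interval 0.31 to 0.49). TUBB6 shared none of its 75-base windows with another gene. TUBB2B, an isotype of developing neurons, stood at 82.4 FPKM (RIP) and 68.2 FPKM (input), a log2 ratio of 0.27.

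Fragments of TUBB2A and TUBB2B are hard to tell apart, and TUBB2B over TUBB2A was 1.11 in the RIP and 1.39 in the input. Summed, the pair stood at 157 FPKM (RIP) and 117 FPKM (input), a log2 ratio of 0.41. The sum lay beside TUBB6 and above TUBB and TUBB4B. By level, TUBB, TUBB4B and TUBB2B came in the same order in both libraries, whereas TUBB6 and TUBB2A changed places (50.4 and 49.1 FPKM in the input, 66.8 and 74.2 FPKM in the RIP).

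TUBG1, the main gamma tubulin gene, stood at 59.6 FPKM (RIP) and 54.9 FPKM (input). Its log2 ratio of 0.12 (counting interval 0.02 to 0.22) lay 0.01 below the median gene, and 49.5% of genes had a lower ratio. Alpha and beta tubulins together had 24.0 times the FPKM of TUBG1 (RIP) and 27.4 times (input). About 20.4% of its windows are shared with TUBG2, which stood at 19.8 FPKM (RIP) and 16.2 FPKM (input), and TUBG1 over TUBG2 was 3.02 and 3.39.

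**Figure D3:**
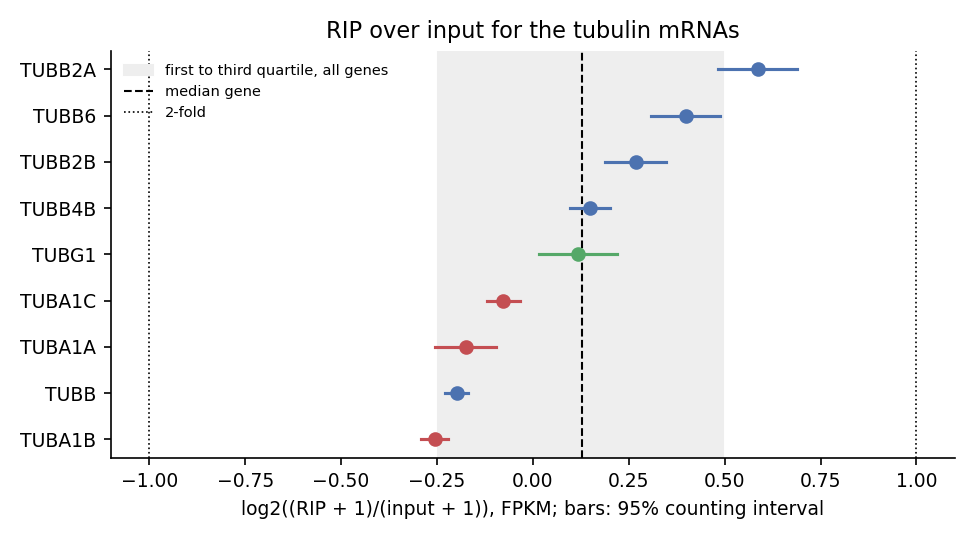
Log2 ratio of RIP over input for each of the 9 tubulins (points, alpha red, beta blue, gamma green) with 95% counting intervals from estimated fragments (bars), set against the median gene (dashed line), the range between the quartiles of all genes (grey) and 2-fold limits (dotted lines). The alpha tubulins and TUBB lie left of the median gene, TUBG1 and TUBB4B on it, and TUBB2B, TUBB6 and TUBB2A right of it.

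By their counting intervals some neighbours in this order could not be told apart. The intervals of TUBA1B, TUBB and TUBA1A overlapped each other, as did those of TUBA1A and TUBA1C. Those of TUBG1, TUBB4B and TUBB2B overlapped in the same way, and the interval of TUBB6 narrowly overlapped those of TUBB2B and TUBB2A. No interval of an alpha tubulin reached that of a beta tubulin other than TUBB. With 1 library a group, the spread between experiments is unknown and may be larger than these intervals. They also leave out the error of dividing shared fragments between genes. Intervals that do not overlap therefore do not separate TUBB2A from TUBB2B, or the TUBA1 genes from each other.

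Within each library, shares of the isotypes do not depend on the scaling between libraries. TUBB made up 43.0% of summed beta tubulin FPKM in the RIP library and 51.2% in the input library. TUBB2A made up 9.4% and 6.4%, TUBB2B 10.4% and 8.9%, TUBB6 8.4% and 6.6%, and TUBB4B 28.7% and 26.8%. The beta mix of the RIP thus held less TUBB and more of each other isotype.

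The alpha mix moved by less. TUBA1B made up 64.7% of summed alpha tubulin in the RIP and 67.0% in the input, TUBA1C 24.3% and 22.2%, and TUBA1A 11.0% and 10.8%. Summed beta tubulin stood at 791 FPKM (RIP) and 764 FPKM (input), a log2 ratio of 0.05. The quotient of summed alpha over summed beta tubulin was 0.81 in the RIP and 0.97 in the input. TUBA4A is not in the alpha sum.

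**Figure D4:**
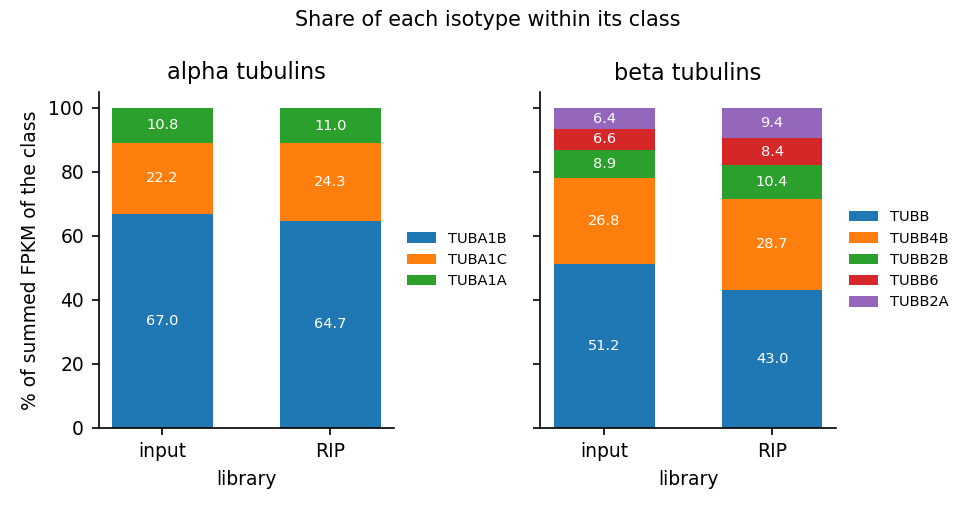
Percentage of summed FPKM taken by each isotype among alpha tubulins (left) and beta tubulins (right), in the input and RIP libraries. TUBB takes 51.2% of beta tubulin in the input and 43.0% in the RIP, and TUBA1B takes 67.0% and 64.7% of alpha tubulin.

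Members with higher levels had lower ratios. Across the 9 members Spearman's rho between mean log2 level and log2 ratio was -0.72, and across the 15 tubulin genes of the table it was -0.75. These are descriptions of genes in the same 2 libraries, and level and ratio are made from the same values. Among coding genes as a whole the median ratio was 0.09 at a mean of 5 to 20 FPKM, 0.24 at 40 to 100 and 0.25 at 100 to 200. It was lower at higher levels, 0.15 at 200 to 500 (quartiles -0.26 and 0.52) and -0.02 from 500 up (quartiles -0.41 and 0.50). Transcript length did not follow the members' order (rho -0.23). Among coding genes the median ratio rose with principal transcript length, from 0.02 at 1000 to 2000 bases and 0.13 at 2000 to 3000 bases to 0.34 from 6000 bases up. The members' principal transcripts were 1595 (TUBB2A) to 3001 (TUBA1C) bases long.

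The less abundant tubulin genes past the filter all had ratios above the median gene, against 50.0% of all genes. Of 13 further tubulin genes looked for, 6 were in the table and 4 passed the filter. TUBE1 and TUBD1, the epsilon and delta tubulins of centrioles, stood at 31.2 and 17.5 FPKM (RIP) and 22.0 and 12.6 FPKM (input), log2 ratios of 0.48 and 0.45. TUBB3, known as the neuronal beta tubulin, stood at 22.9 FPKM (RIP) and 17.5 FPKM (input), a log2 ratio of 0.37, and TUBG2 had 0.27. The counting interval of TUBG2 (0.10 to 0.45) held the median gene. TUBB4A stood at 4.52 FPKM (RIP) and 2.23 FPKM (input), and TUBA8 at 4.42 FPKM and 3.29 FPKM, both under the filter. None of the 4 past the filter was 2-fold apart, against 4.90% of all genes higher and 2.50% lower. Of 38 annotated tubulin pseudogenes 1 was in the table, TUBBP5, at 7.75 FPKM (RIP) and 6.54 FPKM (input).

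The levels of TUBB and TUBA1B were set beside those of the genes most like them. Likeness was the distance between log2(FPKM + 1) values over the 2 libraries, among all genes past the filter. Nearest to TUBB were the histone gene HIST2H2AA4 (352 FPKM (RIP) and 402 FPKM (input), distance 0.06), the ribosomal protein gene RPSA (355 and 417 FPKM, 0.11) and the histone gene H3F3B (369 and 385 FPKM, 0.12). Nearest to TUBA1B were the ribosomal protein genes RPS9 (432 and 493 FPKM, distance 0.06) and RPL24 (441 and 491 FPKM, 0.09) and BTF3 (398 and 478 FPKM, 0.09), whose protein binds nascent chains.

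Among genes of the machinery that folds tubulin, 1 of 8 CCT subunits lay above the median gene, against 50.0% of all genes. Of 16 prefoldin, cofactor and related genes 7 did, near that share. The median principal transcript was 2324 bases for the CCT subunits and 1352 bases for the 16 genes. The part of length in these ratios was not tested. New tubulin passes from prefoldin to the chaperonin CCT and then to cofactors that join alpha to beta. The 8 CCT subunits had a median of 0.03 with 0 at least 2-fold apart, from CCT4 at 106 FPKM (RIP) and 123 FPKM (input) to CCT3 at 261 and 161 FPKM. Their log2 ratios were -0.20 for CCT4, -0.19 for CCT6A, -0.06 for CCT8, 0.05 for CCT2, 0.10 for TCP1 and 0.69 for CCT3. The 16 prefoldin, cofactor and related genes had a median of 0.08, with 9 ratios above 0 and 7 below against 58.7% above 0 among all genes, and 0 were 2-fold apart. Of all genes 4.90% were at least 2-fold higher and 2.50% lower. Prefoldin subunits lay on both sides of the median gene. PFDN1 stood at 35.1 FPKM (RIP) and 58.8 FPKM (input) (log2 ratio -0.73), VBP1 at 45.5 and 70.1 FPKM (-0.61), and PFDN4 at 111 and 72.7 FPKM (0.60), while PFDN6 had -0.36. PDCL3, a relative of the phosducins that works with CCT, was the highest of the list at 39.2 and 23.2 FPKM (0.74). Among the cofactors, TBCD, which acts on beta tubulin, stood at 40.7 and 28.0 FPKM, a log2 ratio of 0.52. TBCA, which holds free beta tubulin, stood at 255 and 208 FPKM, a log2 ratio of 0.30.

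Of 9 genes of tubulin mRNA autoregulation 7 lay above the median gene, against 50.0% of all genes. At the 2-fold limit 0 were higher or lower, against 4.90% and 2.50% of all genes. TTC5, which recognises the nascent chain, stood at 15.7 FPKM (RIP) and 9.30 FPKM (input), a log2 ratio of 0.70. SCAPER, its partner that brings in the CCR4-NOT deadenylase, stood at 44.9 and 23.7 FPKM, a log2 ratio of 0.89. The CCR4-NOT scaffold CNOT1 stood at 177 and 116 FPKM (0.61), CNOT11, the subunit SCAPER binds, at 30.8 and 26.0 FPKM (0.24), and the deadenylases CNOT7 and CNOT8 had -0.47 and -0.39. CNOT10 had 0.23, and the median of the list was 0.33. The median principal transcript of the list was 4118 bases, against 2805 for all genes, and the part of length was not tested.

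Of 21 genes of the gamma-tubulin ring complex, its recruiters and augmin 3 were at least 2-fold higher, against 4.90% of all genes, and 1 was lower, against 2.50%. Among coding genes alone 3.65% were at least 2-fold higher and 0.533% lower. Their median was 0.33. TUBGCP5, a ring subunit, stood at 32.5 FPKM (RIP) and 13.2 FPKM (input), a log2 ratio of 1.24. CDK5RAP2, which activates the ring complex, stood at 60.6 and 26.4 FPKM (1.17), and PCNT, the pericentriolar scaffold pericentrin, at 75.8 and 34.3 FPKM (1.12). Relative to the median gene PCNT lay at 0.995, just short of 2-fold, and CDK5RAP2 at 1.04, just past it. MZT1, a small ring subunit, stood at 6.78 and 16.7 FPKM, a log2 ratio of -1.19.

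The other core TUBGCP subunits lay closer to TUBG1. TUBGCP2 stood at 45.6 FPKM (RIP) and 25.0 FPKM (input) (0.84), TUBGCP6 at 42.3 and 26.7 FPKM (0.65), TUBGCP4 at 20.3 and 14.8 FPKM (0.43) and TUBGCP3 at 22.9 and 18.0 FPKM (0.33). All 5 core subunits had higher ratios than TUBG1, the tubulin they hold, and lay above the median gene, against 50.0% of all genes. Their median principal transcript was 3899 bases, against 1611 bases for TUBG1. The 8 augmin subunits (HAUS1 to HAUS8), which seed branches on existing microtubules, had a median of -0.05 and ran from -0.22 (HAUS6) to 0.65 (HAUS8). NEDD1, which recruits the ring to the spindle, had -0.30. The principal transcripts of PCNT, CDK5RAP2 and TUBGCP5 are 10560, 5985 and 3342 bases long and that of MZT1 2299 bases, and the part of length in these ratios was not tested.

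Of 29 genes for lattice, plus-end and related proteins 26 had ratios above 0, against 58.7% of all genes, with a median of 0.36. At the 2-fold limit 2 were higher and 0 lower, against 4.90% and 2.50% of all genes. The median principal transcript of the 29 was 4446 bases, against 2805 for all genes, and the part of length in these ratios was not tested. PRC1, which bundles antiparallel microtubules at the spindle midzone, stood at 536 FPKM (RIP) and 242 FPKM (input) (1.15), and EML3 at 22.4 and 10.5 FPKM (1.02). Relative to the median gene PRC1 lay at 1.02, just past 2-fold, and EML3 at 0.90, short of it. CLIP2, a plus-end tracker, stood at 5.80 and 2.77 FPKM (0.85). The lowest were DCLK1 (-0.35), the plus-end protein MAPRE1 at 51.4 and 58.2 FPKM (-0.18) and STMN3 at 11.5 FPKM in both libraries. STMN1, which sequesters free tubulin dimers, stood at 287 and 225 FPKM (0.34).

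Of 14 modifying enzymes past the filter 11 were above 0, against 58.7% of all genes, and 0 were 2-fold apart, against 4.90% higher and 2.50% lower. Their median was 0.41, and 0.57 with a filter of 20 FPKM. Their median principal transcript was 3554 bases, against 2805 for all genes, and the part of length was not tested. The polyglutamylase TTLL5 stood at 33.3 FPKM (RIP) and 17.9 FPKM (input) (0.86), TTLL7 at 24.0 and 13.6 FPKM (0.78) and the tubulin deacetylase HDAC6 at 69.2 and 43.8 FPKM (0.65). TTL, which restores the final tyrosine of alpha tubulin, stood at 25.2 and 30.2 FPKM (-0.25), SVBP, a partner of the enzymes that remove it, had -0.18, and SIRT2 had -0.04. Among 9 severing and depolymerising genes the median was 0.19 and 0 were 2-fold apart, against 4.90% of all genes higher and 2.50% lower. Of these 9, 6 lay above the median gene, against 50.0% of all genes. Their median principal transcript was 2664 bases. The 9 ran from FIGNL1 at 16.2 and 28.3 FPKM (-0.77), KIF2A (-0.10) and SPAST (0.03) to KATNAL1 (0.61) and KIF18A at 29.4 and 18.0 FPKM (0.68).

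**Figure D5:**
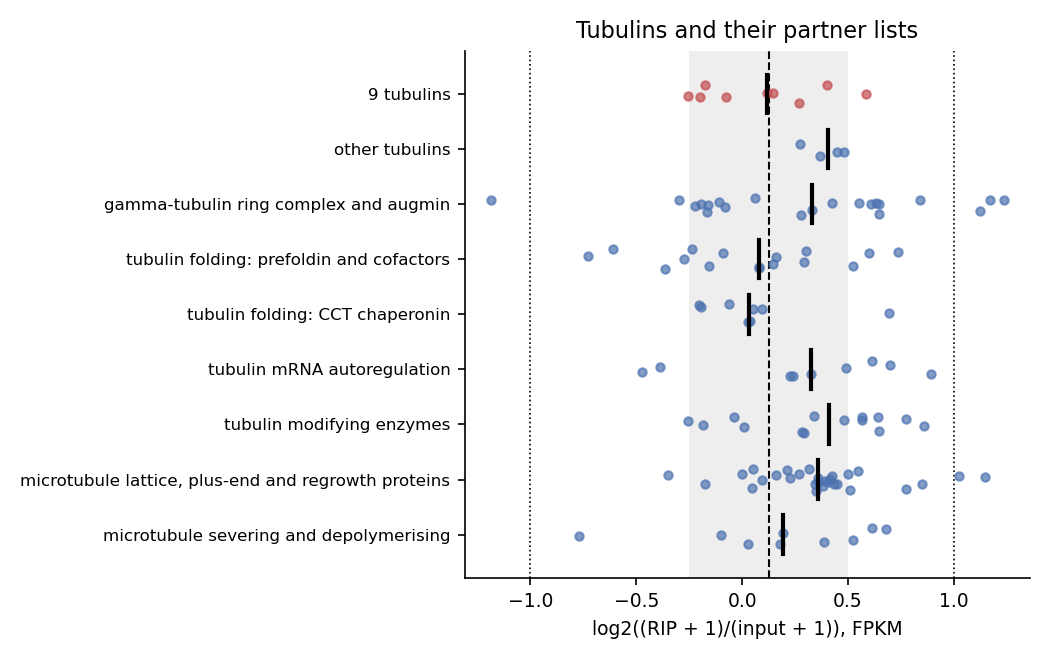
Log2 ratio of RIP over input for each gene past the filter in the 9 tubulins (red) and 8 partner lists (blue), with list medians (black bars), the median gene (dashed line), the range between the quartiles of all genes (grey) and 2-fold limits (dotted lines). On the deposited FPKM scale none of the 9 tubulins reaches a 2-fold limit. On the same scale TUBGCP5, CDK5RAP2, PCNT, PRC1 and EML3 lie beyond the upper limit and MZT1 beyond the lower. Centred on the median gene, PCNT and EML3 fall short of the upper limit.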

How the data were processed

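One table of 13075 genes was used, with 1 RIP and 1 input library. Per the submitters' processing notes, the tools were cutadapt 1.18, Trimmomatic 0.3, STAR 2.6.1 and RSEM 1.2.31 on hg38. Their settings, the gene models used and any filter are not stated there. The deposited values carry no named unit and were taken as FPKM, since they have decimals and sum to 1090243 (RIP) and 1512049 (input).

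Ratios were log2((RIP + 1)/(input + 1)) over genes with at least 5 FPKM in 1 library. Neither group had a replicate, so no test, SD or p-value was computed. Fragment numbers were estimated by searching for the depth and mean fragment length (169 bases RIP, 165 input) at which genes with 1 transcript gave whole fragments. Within 0.15 of a whole number lay 62.7% of 217 genes (RIP) and 60.7% of 356 genes (input), so depths are approximate. The search was also run on simulated fragments of known depth, with the result not given here. A check of the ratio on simulated folds had an outcome fixed by its formula.

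GENCODE 29 matched 12983 genes (99.3%) by Ensembl identifier. Members, lists and alternatives (pseudocount, filter, fold limit, scaling, summed copies) were chosen with earlier results of these data known, and scaling to equal summed FPKM was added after seeing the data. Named genes are all tubulins, up to 3 highest and 3 lowest per list with any at least 2-fold apart, TOP3B and the 3 nearest to TUBB and TUBA1B. Some items the rule takes are not reported here. Other genes named were chosen for their role after their values were seen. Python 3.11.15, numpy 2.4.6, pandas 2.3.3, Biopython 1.88 and matplotlib 3.10.9 were used.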

Additional observations from a re-analysis of the deposited data

How the results depend on the processing

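No paired analysis was possible because neither group had a replicate. Ratios were counted as moved when they shifted by at least 0.1. Pseudocounts of 0.1 and 5 moved no member's ratio and no median of a list. At the 2-fold limit the members past it stayed at 0 in each direction under both pseudocounts, both filters, centring and rescaling without the 6 highest genes. Scaling to equal summed FPKM, added after seeing the data, gave 1 higher, as did the 1.5-fold limit. The members' median of 0.12 became -0.01 when centred on the median gene, 0.34 when rescaled and 0.58 with equal sums, while the median of all genes (0.13) became 0, 0.34 and 0.56. Rescaling turned TUBA1A, TUBA1C and TUBB positive, equal sums turned TUBA1B positive too (0.21), and centring turned TUBG1 to -0.01. Centring shifts all ratios equally. The other scalings shift them by nearly the same amount, and by less at low levels because the pseudocount is added after scaling. With equal sums TUBG1 stood at 0.58, just above the median gene instead of just below it. Of 45 member ratios under other settings 27 moved, all with a scaling. Of 62 list medians 28 moved, 1 of them (modifying enzymes, 0.41 to 0.57) with the filter of 20 FPKM and the others with a scaling. Summing near-identical copies gave medians of -0.21 for alpha and 0.27 for beta tubulins, against -0.17 and 0.27. Against 588 higher and 300 lower genes, pseudocount 5 gave 300 and 180, a filter of 20 FPKM 352 and 157, the 1.5-fold limit 2386 and 1222, and the 4-fold limit 79 and 84. Centring gave 365 higher and 450 lower genes, so lower ones outnumbered higher, rescaling gave 1363 and 206, and equal sums 2467 and 129. Among tubulins depth limits TUBB4A and TUBA8 most, at about 81 and 93 estimated fragments in the input.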

Other observations

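Intermediate filament genes, another cytoskeletal family of HEK293 cells, lay above the median gene except INA. KRT8 and KRT18, the keratin pair of simple epithelia, stood at 158 and 93.3 FPKM (RIP) and 116 and 68.0 FPKM (input), log2 ratios of 0.44 and 0.45. The neurofilament genes NEFL and NEFM stood at 41.5 and 14.1 FPKM (RIP) and 27.3 and 10.7 FPKM (input) (0.58 and 0.37). INA, which encodes alpha-internexin, stood at 8.30 FPKM (RIP) and 10.4 FPKM (input) (-0.29). Of the 6 genes past the filter 5 lay above the median gene, against 50.0% of all genes, and their median was 0.41. At the 2-fold limit 0 were higher or lower, against 4.90% and 2.50% of all genes.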
